A study of Mus musculus with 6 samples.

Results

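The tumour necrosis factor (TNF) superfamily was followed in proliferating satellite cells, which are the stem cells that lie along muscle fibres, of Magic-F1 and control mice. Magic-F1 is a factor engineered from hepatocyte growth factor to activate the receptor MET. Members were the non-control spots whose gene name in the scanner files is Tnfsf, Tnfrsf or Traf followed by a digit, or is Tnf, Lta, Ltb, Ltbr, Fas or Fasl. This gave 47 genes of 27827 gene names on the array, measured by 66 of 41174 probes and 120 of 43379 spots. They comprise 15 ligands, 22 receptors, 7 TNF receptor-associated factors (TRAFs) and 3 genes, Traf3ip1, Traf3ip2 and Traf3ip3, that the rule took in by their names as TRAF3-interacting proteins. Family members with other names, such as Cd40 and Cd27, are given with the pathway genes.

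Both groups held 3 samples from skeletal muscle of female mice, with 1 single-colour Agilent array per sample. The series names the genotype of the first group as Magic-F1+/+, and the labels give neither the promoter that drives Magic-F1 nor strain or age. MLC3F stands in the control titles without explanation. Samples are called biological triplicates without naming animals or cultures, so p-values reflect only how far these samples differ, which may be technical. Slide 1 carried replicates 1 and 3 of each group, and slide 2 carried replicate 2 of each.

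TNF superfamily ligands are mostly trimeric membrane proteins, some of which are shed by proteases, and they act on receptors with cysteine-rich extracellular domains. Receptors with a death domain can recruit caspase-activating adaptors. Others bind TRAF proteins, through which they activate NF-kB and stress kinases, and decoy receptors bind a ligand without signalling. In muscle, TNF and the TWEAK receptor Fn14 (Tnfrsf12a) are known in injury and wasting, and NF-kB activity is known to restrain myoblast differentiation.

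Levels are given as log2 of the processed signal relative to the 75th percentile of the same array, so 0 is the 75th percentile, and levels of different probes are not comparable. Changes are Magic-F1 minus control on the same log2 scale, with the standard error (SE), from a limma fit over 21183 probes with Benjamini-Hochberg adjustment. A gene counts as called below an adjusted p of 0.05 and is represented by its brightest tested probe. Tested probes were those that all 3 arrays of either group showed well above background. The 75th percentile of signal was 341 to 356 on Magic-F1 arrays and 275 to 292 on control arrays, and 49.2% to 52.0% of spots were well above background. With 3 arrays a group, precision is limited by their number.

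The labelled cell type was set against its defining markers, since several members are known from immune cells. For comparison with the counts below, 40.1% of all genes tested were called higher in Magic-F1 and 49.2% lower. Of 8 tested satellite cell and myoblast markers 7 were lower in Magic-F1, with a summed linear level of 66.7 to 68.5 on Magic-F1 arrays and 611 to 645 on control arrays. No Magic-F1 array showed Pax7 well above background, and none of the 6 arrays showed Myf5. Of 12 tested macrophage markers 11 were higher in Magic-F1 (summed level 1380 to 1450 against 422 to 449), and of 7 tested neutrophil markers 6 were lower (1.76 to 1.84 against 552 to 593). A summed level is led by its brightest probes and is no measure of cell number. In control these were Lyz2 (mean 8.48), the macrophage marker called lower, and S100a9 (mean 8.89) of the neutrophil list. All 5 tested adipocyte markers were higher (234 to 250 against 52.6 to 58.8). Of 5 tested endothelial markers 4 were lower (0.229 to 0.255 against 7.51 to 7.90), and all 4 mast cell markers were lower, with no Magic-F1 array well above background (0.0379 to 0.0454 against 0.645 to 0.682). Among B lymphocyte markers 3 of 4 tested were lower (0.501 to 0.552 against 0.843 to 0.960), of which Cd79b was not called under spike-in scaling (adjusted p = 0.228), and among T and NK lymphocyte markers 3 of 5 were lower and 1 higher (0.672 to 0.703 against 1.35 to 1.56). Both tested dendritic markers were lower (0.210 to 0.242 against 0.451 to 0.670). Another probe of the dendritic marker Zbtb46 was called in the opposite direction, as was another probe each of Lyz2, Sdc4 and Pdgfra in other lists. Of 6 tested osteoclast markers 3 were higher and 1, Acp5, was lower (18.3 to 19.8 against 8.84 to 10.3), though Acp5 was called higher under spike-in scaling and not called under median scaling (adjusted p = 0.468). Of 4 tested fibro-adipogenic markers 2 were higher and 2 lower (241 to 247 against 419 to 433). Of these, Col1a1 was not called under spike-in scaling (adjusted p = 0.132) and Pdgfra not with normexp (adjusted p = 0.0548). Markers of several other cell types thus also differed between the groups, in either direction, and their part in the results below was not tested. In bulk RNA, fewer cells of a type and less RNA per cell cannot be told apart.

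Promoter windows of the 3 neighbouring genes Ltb, Tnf and Lta, and of the receptors with the largest rise and fall, Tnfrsf11a and Tnfrsf13c, are printed because these neighbours and receptors changed in different directions. Each runs 5′ to 3′ in the sense of the gene over the 250 bases before its start in RefSeq (GRCm38.p6), and capitals mark motif matches on either strand. The windows are chr17:35194257-35194506 (plus strand) for Ltb, chr17:35202008-35202257 (minus) for Tnf, chr17:35205352-35205601 (minus) for Lta, chr1:105780473-105780722 (plus) for Tnfrsf11a and chr15:82224381-82224630 (minus) for Tnfrsf13c.
Ltb: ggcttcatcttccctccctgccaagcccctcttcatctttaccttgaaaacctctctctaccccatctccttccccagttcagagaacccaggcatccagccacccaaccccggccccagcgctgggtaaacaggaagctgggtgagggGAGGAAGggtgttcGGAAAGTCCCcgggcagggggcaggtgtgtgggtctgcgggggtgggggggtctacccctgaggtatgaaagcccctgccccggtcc
Tnf: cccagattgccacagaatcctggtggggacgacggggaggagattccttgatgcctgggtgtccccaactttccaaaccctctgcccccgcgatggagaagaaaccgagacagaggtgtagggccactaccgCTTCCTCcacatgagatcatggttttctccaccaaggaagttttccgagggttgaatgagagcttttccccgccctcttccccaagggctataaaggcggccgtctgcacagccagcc
Lta: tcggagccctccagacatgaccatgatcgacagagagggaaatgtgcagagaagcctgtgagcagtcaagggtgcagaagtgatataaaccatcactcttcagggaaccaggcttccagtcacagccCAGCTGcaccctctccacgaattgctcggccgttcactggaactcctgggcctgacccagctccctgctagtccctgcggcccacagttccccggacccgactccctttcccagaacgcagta
Tnfrsf11a: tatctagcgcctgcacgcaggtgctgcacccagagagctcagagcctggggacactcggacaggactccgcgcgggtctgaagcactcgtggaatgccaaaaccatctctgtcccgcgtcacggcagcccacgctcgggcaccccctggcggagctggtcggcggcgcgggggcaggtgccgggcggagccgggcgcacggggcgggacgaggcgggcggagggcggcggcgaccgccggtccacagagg
Tnfrsf13c: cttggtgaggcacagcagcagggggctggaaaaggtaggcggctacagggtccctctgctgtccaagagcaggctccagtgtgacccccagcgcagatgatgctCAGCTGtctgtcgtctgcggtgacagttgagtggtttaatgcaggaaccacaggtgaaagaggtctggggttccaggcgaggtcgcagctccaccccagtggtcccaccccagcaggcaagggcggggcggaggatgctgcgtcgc
The motifs were GGGNNTTTCC for NF-kB, CAGCTG for an E-box of the kind bound by MyoD, and GAGGAAG for the myeloid factor PU.1. Ltb holds GGAAAGTCCC 87 bases and GAGGAAG 101 bases before its start, Tnf holds CTTCCTC at 118 bases, Lta holds CAGCTG at 123 and Tnfrsf13c at 146 bases, and the Tnfrsf11a window holds none of them. Of 38 members with a window in the RefSeq table, 4 held the NF-kB letters against 1.41% of all 32841 windows. The E-box lay in 6 against 13.0%, and the PU.1 letters in 9 against 10.6%. A member was counted if any of its windows matched, and the 38 members have 42 windows. The percentages are of single windows, so the units are not the same. A wider NF-kB form, GGGNNNNNCC, was searched first and replaced after its counts were seen; it lay in 26 of the 38 members and in 45.8% of all windows. Matches split over members that rose and fell: the PU.1 letters were in 3 of 15 members that rose and 6 of 17 that fell, the E-box in 1 and 3, and the narrower NF-kB letters in 1 and 2. A match describes letters and not a bound site.

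Of the 47 members, 41 genes were tested. In Magic-F1 18 were higher and 21 lower, and 2 were not called. Among the 12163 tested genes with a RefSeq match, 89.3% were called, 40.1% higher and 49.2% lower, so the share of members called, 95.1%, lies near that of all genes. At a fold of 2 or more, 14 members were higher and 16 lower, 73.2% of those tested, against 52.2% of all genes tested. The median change was -0.22 over the members and -0.18 over all genes. Of 47 tested member probes 22 were higher and 23 lower, against 87.7% called, 41.3% higher and 46.4% lower among all probes tested. These counts are over genes and probes that passed the filter and not over all members. The values of the groups did not overlap for any of the 39 called members, and the direction was the same on both slides for all 39. This held for nearly every called gene on the array: of 10862, 99.7% had groups that did not overlap, and 10860 had the same direction on both slides.

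**Figure D1:**
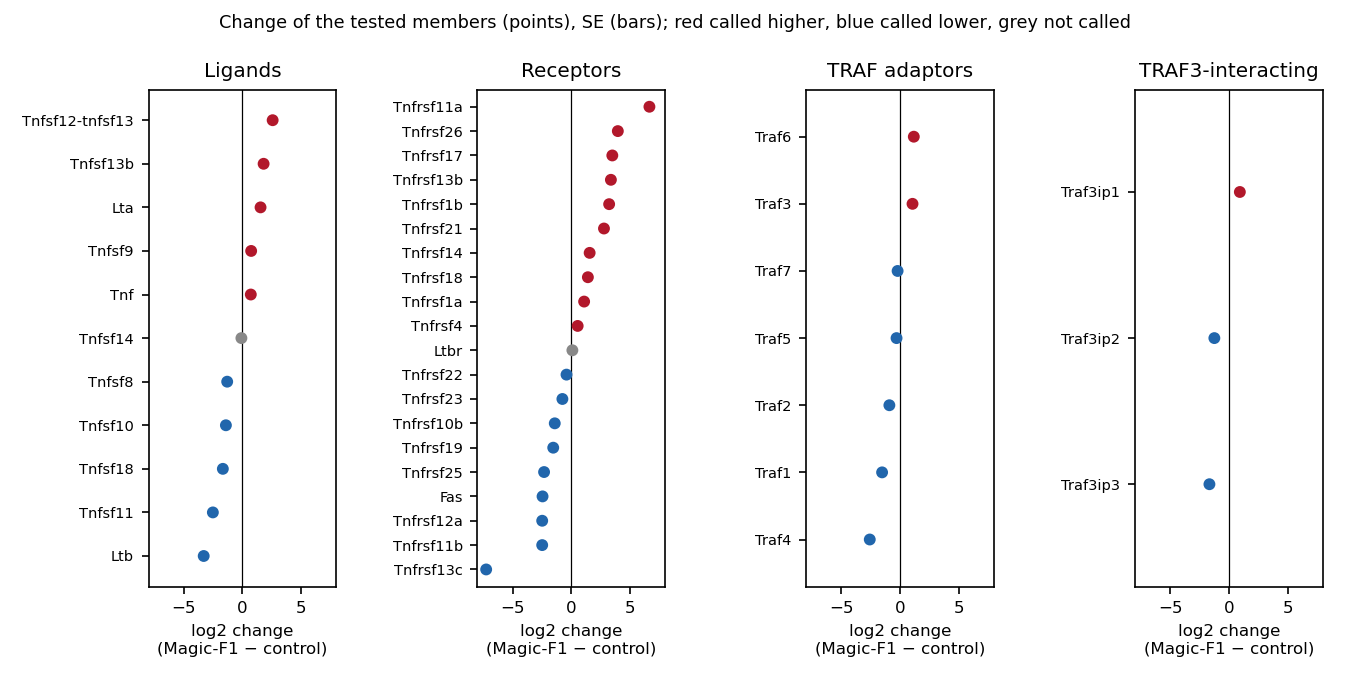
Log2 change (Magic-F1 minus control, horizontal axis) of the 41 tested members by role, with SE bars that are mostly shorter than the points; red marks genes called higher, blue lower and grey not called. Changes run from -7.25 for Tnfrsf13c to 6.65 for Tnfrsf11a, and ligands and receptors both spread to either side of 0.

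Of 15 ligands, 11 were tested, 5 were higher, 5 lower and 1 not called. The lymphotoxin and TNF genes, which lie side by side on chromosome 17, moved in different directions. Ltb, which forms the membrane heterotrimer that binds the lymphotoxin beta receptor, had levels of -1.01, -0.85 and -0.88 on Magic-F1 replicates 1, 2 and 3 and of 2.33, 2.32 and 2.51 on the controls. All control arrays were above all Magic-F1 arrays, a change of -3.30 (SE 0.07, limma adjusted p = 1.52e-07), or 9.86-fold lower. Tnf, the founding inflammatory cytokine of the family, had levels of 1.87, 1.91 and 1.92 against 1.20, 1.20 and 1.18. It was 1.63-fold higher in Magic-F1 (log2 change 0.71, SE 0.04, limma adjusted p = 8.18e-06), a difference many times the spread of either group (SD 0.03 and 0.01, n = 3 each). Lta, the soluble lymphotoxin that shares the TNF receptors, had levels of -1.74, -1.83 and -1.70 against -3.37, -3.36 and -3.16. Its change was 1.54 (SE 0.08, limma adjusted p = 3.63e-06), and 0.61 with the normexp background correction, which raises low signals. The Ltb probe (mm9, chr17:35333097-35333156) starts 3.7 kb from the Tnf probe (chr17:35336795-35336854), which starts 3.5 kb from the Lta probe (chr17:35340275-35340334).

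Among the ligands of B cell survival, Tnfsf13b, which encodes BAFF, had levels of -0.36, -0.42 and -0.42 in Magic-F1 and of -2.39, -1.96 and -2.24 in control. The change was 1.80 (SE 0.11, limma adjusted p = 1.10e-05), and 1.16 with normexp. The probe named Tnfsf12-tnfsf13, after the read-through of the TWEAK and APRIL genes, had levels of 1.44, 1.5 and 1.55 against -1.18, -0.94 and -1.10, a change of 2.57 (SE 0.08, limma adjusted p = 4.25e-07). Its accession list also holds a transcript of Tnfsf13, so read-through and APRIL transcripts cannot be told apart here. Tnfsf12 itself, which encodes the ligand TWEAK, had a probe 3.2 kb away that was not well above background on any array.

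Tnfsf9, the 4-1BB ligand that costimulates T cells, was the remaining riser, with levels of -1.23, -1.24 and -1.17 against -2.02, -1.93 and -1.91 (change 0.74, SE 0.05, limma adjusted p = 1.88e-05). The other called ligands were dim and fell. Tnfsf11, which encodes the osteoclast differentiation ligand RANKL, had levels of -6.19, -6.20 and -6.42 against -3.83, -3.76 and -3.65. No Magic-F1 array was well above background for it, so it was at least 2.91-fold lower (limma adjusted p = 7.22e-07). The second Tnfsf11 probe was not well above background on any array. Here and below such a bound sets the brighter group against the dimmest signal still well above background on each array of the other group. The probe's own signal was used where higher. These bounds hold for the processed signal only and are no limit under normexp, which gave smaller changes. Tnfsf10, the death ligand TRAIL, had levels of -5.58, -5.25 and -6.01 against -4.24, -4.17 and -4.22 and was likewise at least 2.08-fold lower (limma adjusted p = 0.000488). Tnfsf18, the ligand of GITR, had levels of -4.34, -3.93 and -4.27 against -2.40, -2.51 and -2.60 (change -1.67, SE 0.12, limma adjusted p = 2.20e-05). Levels of Tnfsf8, the CD30 ligand, were -5.03, -4.56 and -4.77 against -3.34, -3.70 and -3.42 (change -1.30, SE 0.15, limma adjusted p = 0.000238). In each of the 4 the groups stayed apart, and normexp gave smaller falls: -0.62 for Tnfsf11, -0.46 for Tnfsf10, -0.73 for Tnfsf18 and -0.50 for Tnfsf8.

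Tnfsf14, the ligand LIGHT, had levels of 0.86, 0.92 and 0.99 against 0.99, 1.01 and 1.03, and its change of -0.09 (SE 0.05) did not pass the test (limma adjusted p = 0.145). Its sign depended on the scaling: 0.04 with median scaling and 0.37 with scaling to the spike-in transcripts. The probes of Fasl (both), Tnfsf12, Tnfsf15 and Tnfsf4 were not well above background on any array, so no difference was measurable for these 4 ligands.

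**Figure D2:**
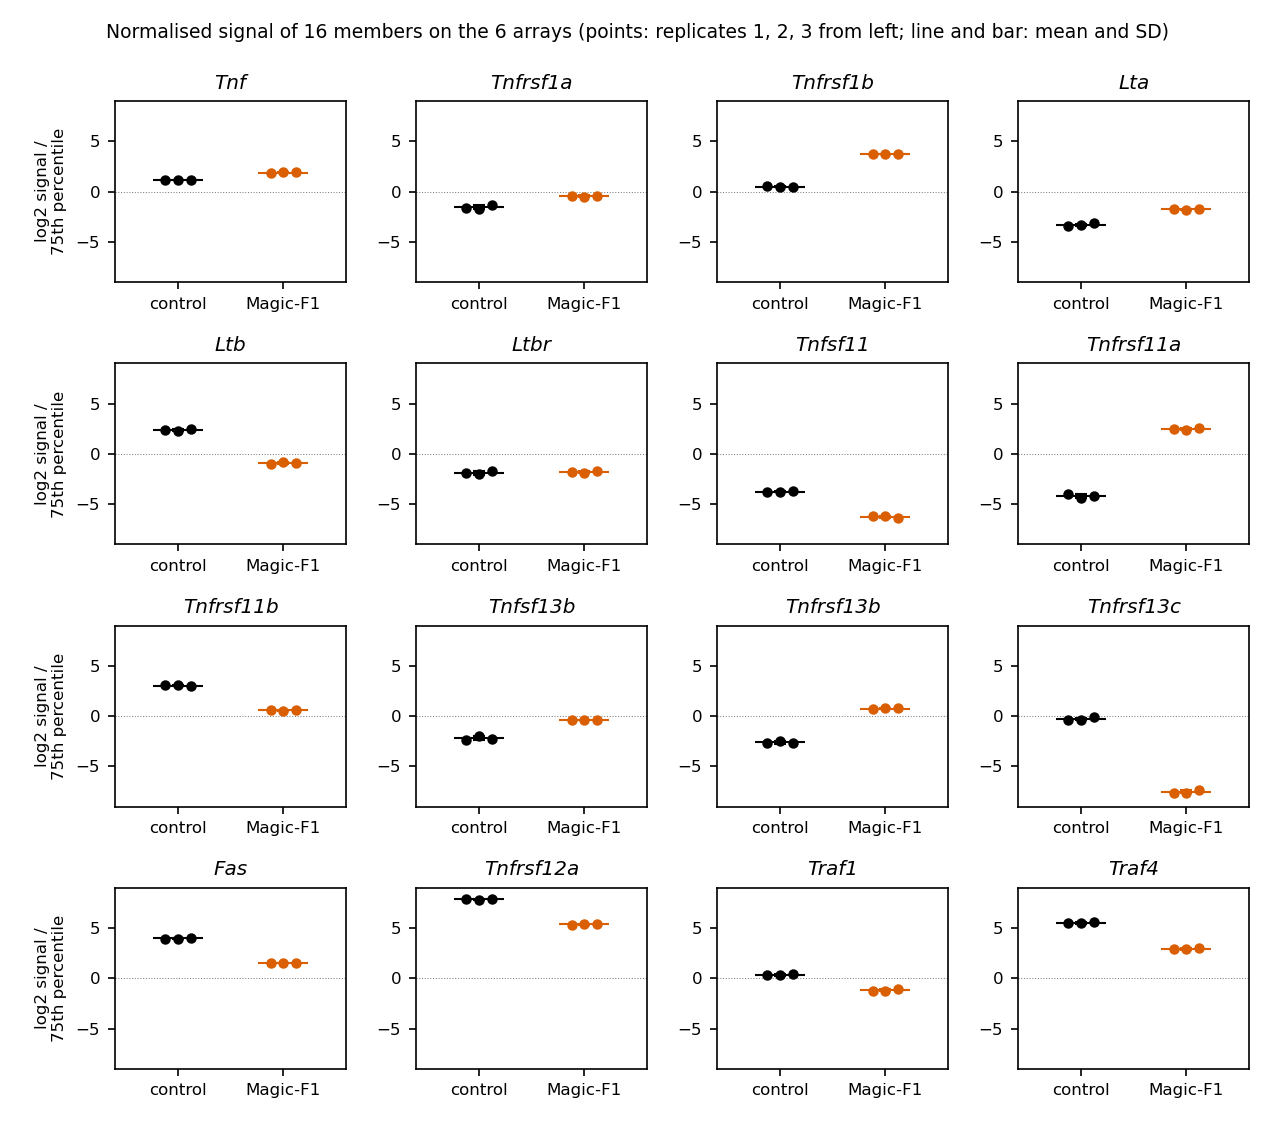
Level of 16 members on each array (vertical axis, log2 signal relative to the 75th percentile of the array) for control (black) and Magic-F1 (orange), with the mean and SD of 3 arrays. The points of a group lie close together in every panel, and only the panel of Ltbr shows overlapping groups.

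Receptor changes ran from -7.25 to 6.65: 20 of 22 were tested, 10 were higher, 9 lower and 1 not called. Both TNF receptors rose. Tnfrsf1b, which encodes the TNFR2 receptor of leukocytes, had levels of 3.73, 3.71 and 3.75 in Magic-F1 and of 0.52, 0.49 and 0.51 in control. This was 9.34-fold higher (change 3.22, SE 0.04, limma adjusted p = 2.92e-08), while its second, dimmer probe gave 2.15, the only member whose tested probes differed by over 1. Tnfrsf1a, the widely expressed death-domain receptor TNFR1, had levels of -0.41, -0.56 and -0.41 against -1.67, -1.68 and -1.31, and its change was 1.09 (SE 0.11, limma adjusted p = 0.000145).

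The RANK axis, which drives osteoclast formation, gave the largest rise. Tnfrsf11a, which encodes RANK (probe mm9 chr1:107743752-107743811), had levels of 2.44, 2.42 and 2.55 in Magic-F1 and of -3.95, -4.35 and -4.23 in control. The change was 6.65 (SE 0.11, limma adjusted p = 5.62e-08), or 100.2-fold, with 5.78 from the second probe and 4.40 with normexp. Tnfrsf11b, which encodes osteoprotegerin, the secreted decoy that binds RANKL, went the other way, with levels of 0.56, 0.53 and 0.62 against 3.09, 3.05 and 3.00. It was 5.57-fold lower (change -2.48, SE 0.05, limma adjusted p = 1.04e-07). RANK was thus higher, while the decoy and, on 1 of its 2 probes, the ligand were lower. Beside these, the osteoclast markers Dcstamp (at least 14.2-fold higher, but a change of 1.29 with normexp), Nfatc1 (3.50) and Ctsk (0.84) were higher. Acp5 changed by -0.20, which turned to 0.25 (adjusted p = 0.0119) under spike-in scaling, and Ocstamp (-0.16, adjusted p = 0.246) and Oscar (0.20, adjusted p = 0.211) were not called. The macrophage markers Csf1r (6.08) and Cd68 (5.80) moved the same way as Tnfrsf11a.

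The 3 BAFF-binding receptors did not move together. Tnfrsf13c, which encodes the BAFF receptor (probe mm9 chr15:82052225-82052284), had levels of -7.64, -7.61 and -7.34 in Magic-F1 and of -0.36, -0.36 and -0.13 in control. No Magic-F1 array was well above background, and the gene was at least 32.2-fold lower (limma adjusted p = 4.27e-08); the fitted change was -7.25, and -2.67 with normexp. Tnfrsf13b, which encodes TACI, rose instead: levels were 0.68, 0.76 and 0.79 against -2.72, -2.44 and -2.71, a change of 3.37 (SE 0.09, limma adjusted p = 2.86e-07), and 2.36 with normexp. This value rests on a probe whose accession is that of a cDNA clone with no match in the RefSeq table. The probe matched to the RefSeq transcript of the gene had no array well above background. Tnfrsf17, which encodes the plasma cell receptor BCMA, had levels of -3.12, -3.21 and -3.32 against -6.83, -6.08 and -7.22 and no control array was well above background. It was at least 3.34-fold higher (limma adjusted p = 3.94e-05), with a normexp change of 0.38 and values of 3.80 within slide 1 and 2.87 on slide 2. The B lymphocyte marker Pax5 was not well above background on any array, Cd79a on no control array and Ms4a1 on no Magic-F1 array.

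Tnfrsf26, one of a cluster of TRAIL-receptor-like genes on chromosome 7, had levels of 0.41, 0.51 and 0.44 against -3.51, -3.36 and -3.63 (change 3.96, SE 0.08, limma adjusted p = 1.03e-07), and 2.30 with normexp. Its neighbours in that cluster, the decoy receptor genes Tnfrsf22, 29.4 kb away, and Tnfrsf23, a further 31.0 kb on, moved little: -0.41 and -0.76. The fall of Tnfrsf22 became 0.05 (limma adjusted p = 0.521) under spike-in scaling, while Tnfrsf23 fell under each alternative run. Tnfrsf21, the death receptor DR6, rose by 2.78 (levels 1.22 to 1.34 against -1.55 to -1.45), and its second tested probe gave 2.75. Tnfrsf14, the LIGHT receptor HVEM, rose by 1.56 (levels -0.86 to -0.29 against -2.13 to -1.98), with Magic-F1 replicate 2 the lowest of its group on both tested probes; the brighter probe has an accession not matched to RefSeq, and the matched one gave 1.52. Tnfrsf18, which encodes GITR, rose by 1.41 (-0.37 to -0.28 against -1.93 to -1.59) and its neighbour Tnfrsf4, which encodes OX40, by 0.54 (-0.10 to 0.12 against -0.56 to -0.47). The limma adjusted p of these 4 genes ran from 1.05e-07 for Tnfrsf21 to 0.000369 for Tnfrsf4.

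Of the death-domain receptors among the members, Fas, Tnfrsf25 and Tnfrsf10b fell while Tnfrsf1a and Tnfrsf21 rose. Fas, the receptor of Fas ligand that starts apoptosis, had levels of 1.54, 1.52 and 1.5 in Magic-F1 and of 3.95, 3.96 and 4.02 in control, 5.48-fold lower (change -2.45, SE 0.04, limma adjusted p = 7.21e-08). Tnfrsf12a, the TWEAK receptor Fn14, had levels of 5.33, 5.38 and 5.44 against 7.85, 7.83 and 7.93, and was 5.59-fold lower (change -2.48, SE 0.05, limma adjusted p = 1.24e-07). Levels of Tnfrsf25, the death receptor DR3, were -1.95, -1.96 and -1.98 against 0.33, 0.33 and 0.40 (change -2.32, SE 0.04, limma adjusted p = 8.80e-08), with -1.70 under normexp. Each of these 3 differences was far larger than the spread within either group (SD at most 0.05, n = 3). Tnfrsf19, known as TROY, fell by 1.54 and Tnfrsf10b, the mouse TRAIL receptor, by 1.41, with limma adjusted p of 4.04e-07 and 7.11e-07. The second tested Tnfrsf10b probe gave -1.60.

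Ltbr, the lymphotoxin beta receptor, had levels of -1.81, -1.88 and -1.75 against -1.95, -2.05 and -1.69. The groups overlapped, and its change of 0.09 (SE 0.10) did not pass the test (limma adjusted p = 0.441). It was -0.02 (adjusted p = 0.759) with normexp, and without control replicate 3 it was 0.19 (adjusted p = 0.0336). Tnfrsf8, which encodes CD30, was not well above background on any array. Tnfrsf9, the 4-1BB receptor, was not tested: 1 of its 3 probes passed background on 1 array of each group, with a level of -2.75 on Magic-F1 replicate 3 and of -7.41 to -4.79 on the other arrays.

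All 7 TRAF genes were tested and called, 2 higher and 5 lower (all genes tested: 89.3% called, 40.1% higher and 49.2% lower). Traf6, the ubiquitin ligase that serves RANK and Toll-like receptors, had levels of -2.03, -1.98 and -1.92 in Magic-F1 and of -3.09, -3.11 and -3.21 in control (change 1.16, SE 0.06, limma adjusted p = 3.35e-06), with 0.41 under normexp. Traf3, which restrains the noncanonical NF-kB pathway, had levels of 2.47, 2.5 and 2.5 against 1.46, 1.51 and 1.35 (change 1.05, SE 0.06, limma adjusted p = 4.93e-06). Both rises were of about the same size and lay outside the spread of either group.

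Traf4, a TRAF known from epithelia and morphogenesis, fell most: its levels were 2.91, 2.87 and 3.02 against 5.48, 5.49 and 5.60, 6.03-fold lower (change -2.59, SE 0.06, limma adjusted p = 1.95e-07), with -2.46 from the second probe. Traf1, which pairs with TRAF2 and is itself an NF-kB target, had levels of -1.26, -1.22 and -1.08 against 0.32, 0.29 and 0.46 (change -1.54, SE 0.07, limma adjusted p = 3.01e-06). Traf2, the adaptor of TNF receptors that brings in ubiquitin ligases, had levels of 3.12, 3.08 and 3.21 against 4.05, 4.04 and 4.10 (change -0.92, SE 0.05, limma adjusted p = 6.84e-06). These 3 falls kept their direction and call under each alternative run. Traf5, close in structure to TRAF3, had levels of 1.77, 1.78 and 1.87 against 2.12, 2.17 and 2.08, a change of -0.31 (SE 0.05, limma adjusted p = 0.00136) that turned to 0.15 (adjusted p = 0.0308) under spike-in scaling. Traf7, which lacks the typical TRAF domain, had levels of 3.91, 3.88 and 3.88 against 4.14, 4.17 and 4.03, a change of -0.22 (SE 0.05, limma adjusted p = 0.00800) that turned to 0.23 (adjusted p = 0.0112) under spike-in scaling. Both small falls therefore depended on how the arrays were scaled.

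Of the TRAF3-interacting genes, Traf3ip3, known from lymphocytes, fell by 1.67 (levels -0.47 to -0.37 against 1.22 to 1.26) and Traf3ip2, the IL-17 receptor adaptor Act1, by 1.25 (-1.37 to -1.31 against -0.23 to 0.04). Traf3ip1, a protein of primary cilia, rose by 0.92 (-1.0 to -0.96 against -2.09 to -1.71) on a probe with an accession not matched to RefSeq, while its RefSeq-matched probe had no array well above background. Limma adjusted p was 3.70e-07, 1.05e-05 and 0.000152 in that order, and the groups did not overlap.

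Set out as 20 ligand and receptor pairs known from textbooks, 8 pairs moved in the same direction, 3 in opposite directions, 3 had a side that was not called and 6 a side that was not tested. Pairs share members and arrays and are not independent. The 4 pairs of Tnf or Lta with Tnfrsf1a or Tnfrsf1b were higher on both sides. Tnfsf10 and Tnfrsf10b fell on both sides, as did Tnfsf11 and the decoy Tnfrsf11b. The pairs Tnfsf11 with Tnfrsf11a, Tnfsf13b with Tnfrsf13c and Tnfsf18 with Tnfrsf18 moved apart. For Fas, Tnfrsf12a, Tnfrsf25 and Tnfrsf4 the receptor was called, while none of the 6 arrays showed the ligand well above background.

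**Figure D3:**
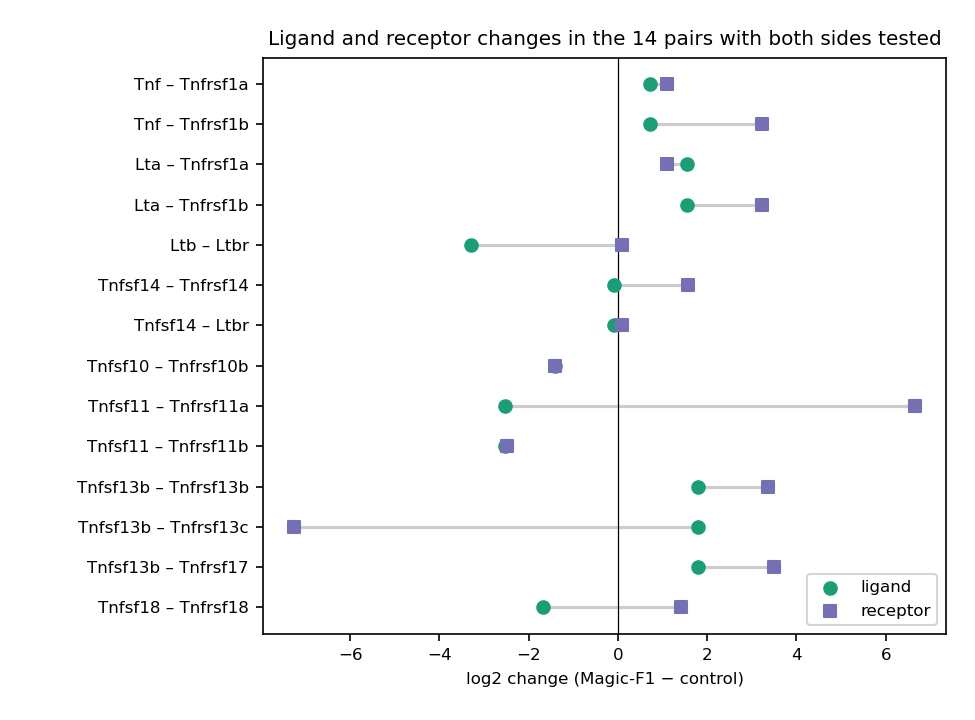
Log2 change (horizontal axis, Magic-F1 minus control) of the ligand (circle) and receptor (square) in the 14 pairs with both sides tested, joined by a line. The longest lines are those of Tnfsf13b with Tnfrsf13c (1.80 and -7.25) and Tnfsf11 with Tnfrsf11a (-2.52 and 6.65).

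Beyond the family, 71 of 81 listed genes of TNF and NF-kB signalling were tested, of which 39 were higher, 27 lower and 5 not called, with a median change of 0.39. The share called is near the 89.3% of all genes tested. Of 7 tested family members with other names 6 were lower, where 49.2% of all genes tested were lower. Cd40, the costimulatory receptor of B cells and macrophages, had levels of -1.03, -0.93 and -0.96 in Magic-F1 and of 1.39, 1.43 and 1.44 in control (change -2.39, SE 0.05, limma adjusted p = 9.89e-08). Cd27 was at least 12.6-fold lower by the bound, with a normexp change of -1.50, and Ngfr, the p75 neurotrophin receptor, fell by 2.01. Edaradd, the adaptor of the EDA receptor, was at least 1.53-fold higher by the bound, but with normexp its change was 0.05 and the call was lost (adjusted p = 0.379).

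Receptor-proximal adaptors, ligases and kinases were higher in 21 of 30 tested genes and lower in 6 (all genes tested: 40.1% and 49.2%). Of the falls, Birc2, Fadd and Map3k14 changed sign under spike-in scaling and Map3k7 lost its call (adjusted p = 0.522). Another Fadd probe was called in the opposite direction. Of the rises, Tab2 turned to -0.09 with normexp (adjusted p = 0.136). The calls of Birc3 with quantile normalization (adjusted p = 0.0879) and of Tax1bp1 within slide 1 (adjusted p = 0.15) were lost. The largest rises were those of Map3k5, the stress kinase ASK1 (3.37, limma adjusted p = 4.07e-07, and 2.35 with normexp), of Madd (at least 4.30-fold by the bound, with a normexp change of 0.48) and of Ikbke (2.37). Ripk1, the kinase that decides between survival and death signalling, changed by 1.51, the linear ubiquitin ligase genes Rnf31, Sharpin and Rbck1 by 1.09, 1.23 and 0.47, and Tnfaip3, the deubiquitinase A20, by 1.41 (levels 2.38, 2.45 and 2.51 against 1.02, 1.02 and 1.07). These 5 genes and 3 more outside the largest changes, Ccl2, Vcam1 and Csf1, were named after their values were seen. The necroptosis effectors Mlkl (-1.90) and Ripk3 (-1.20) fell.

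Of 12 tested IKK and NF-kB factors 9 were higher and 2 lower (all genes tested: 40.1% and 49.2%). Of the rises, Chuk changed by only 0.14 and lost its call with quantile normalization (adjusted p = 0.102). Rela, the p65 subunit, had levels of 4.90, 4.87 and 4.92 against 3.50, 3.49 and 3.43 (change 1.42, SE 0.05, limma adjusted p = 5.61e-07), and Ikbkb changed by 1.05. Ikbkg changed by 1.17 (0.50 with normexp), but another of its probes was called in the opposite direction. The 2 lower genes, Nfkbiz and Nfkbia, changed by -0.74 and -0.26, and Nfkbia turned positive under spike-in scaling. Nfkbib was not called (-0.03, limma adjusted p = 0.651).

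Of 17 tested known NF-kB targets 11 were lower and 5 higher (median -1.58), against 49.2% lower and 40.1% higher among all genes tested. These counts depend on the list in which a gene was placed. Known targets placed elsewhere were not counted here and went in either direction. Examples are Tnfaip3 (1.41) and Tnf (0.71), which were higher, and Traf1 (-1.54) and Nfkbia (-0.26), which were lower. Markers of several cell types also differed, as given above. Most tested neutrophil, myoblast, endothelial and mast cell markers were lower in Magic-F1, and most macrophage and adipocyte markers were higher. The part of these cell types in the counts was not tested. Il6, the cytokine interleukin-6, had levels of -2.28, -2.41 and -2.48 in Magic-F1 and of 3.67, 3.67 and 3.81 in control (change -6.11, SE 0.07, limma adjusted p = 2.67e-08), and -5.16 with normexp. Cxcl1, a neutrophil chemokine, changed by -5.34 (-3.85 with normexp), and Il1b was at least 8.32-fold lower by the bound, with a normexp change of -1.20. Ccl2 and Vcam1 fell by 2.93 and 1.58, while Bcl2a1b (2.90), Bcl2l1 (1.85) and Tnfaip2 (1.64) rose, as did Csf1 (0.87). Among genes of shedding, Adam17, the protease that releases TNF, had levels of 3.07, 3.15 and 3.13 against 1.63, 1.69 and 1.56 (change 1.48, limma adjusted p = 9.13e-07). Its cofactor gene Rhbdf2 rose by 2.34, Furin by 1.07, and the inhibitor gene Timp3 fell by 0.56, a call that was lost under spike-in scaling (-0.10, adjusted p = 0.361).

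**Figure D4:**
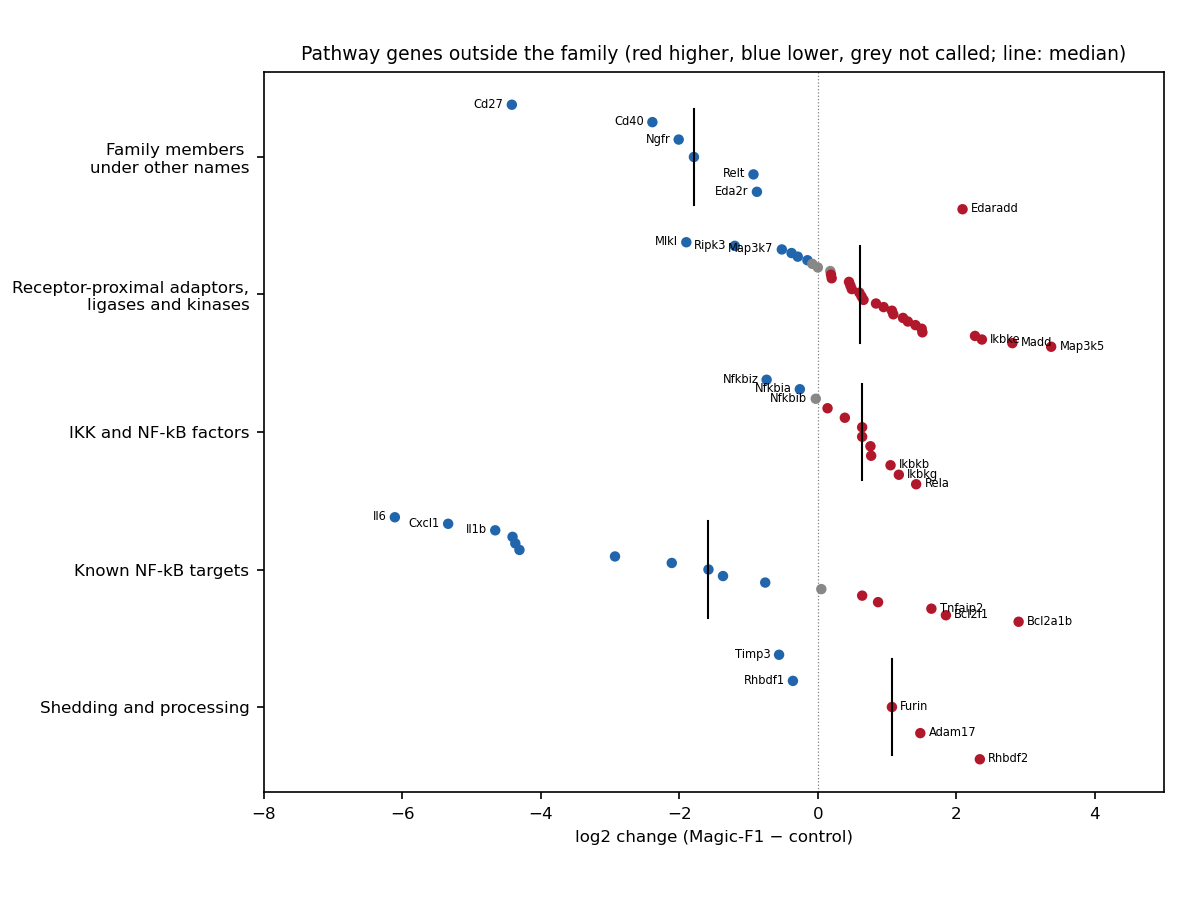
Log2 change (horizontal axis, Magic-F1 minus control) of 71 tested pathway genes outside the family in 5 lists, with the median of each list as a black line. The medians are 0.61 for receptor-proximal genes and 0.64 for IKK and NF-kB factors, and -1.58 for NF-kB targets. They depend on the list in which a gene was placed, since some genes of the other lists are also NF-kB targets.

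With normexp all 39 called members kept direction and call, but 13 folds were over 1.5 times smaller, each given above beside its gene. Spike-in scaling moved the median of all probes from -0.10 to 0.36 and the split of all probes from 8749 higher and 9838 lower to 11119 and 7211.

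**Figure D5:**
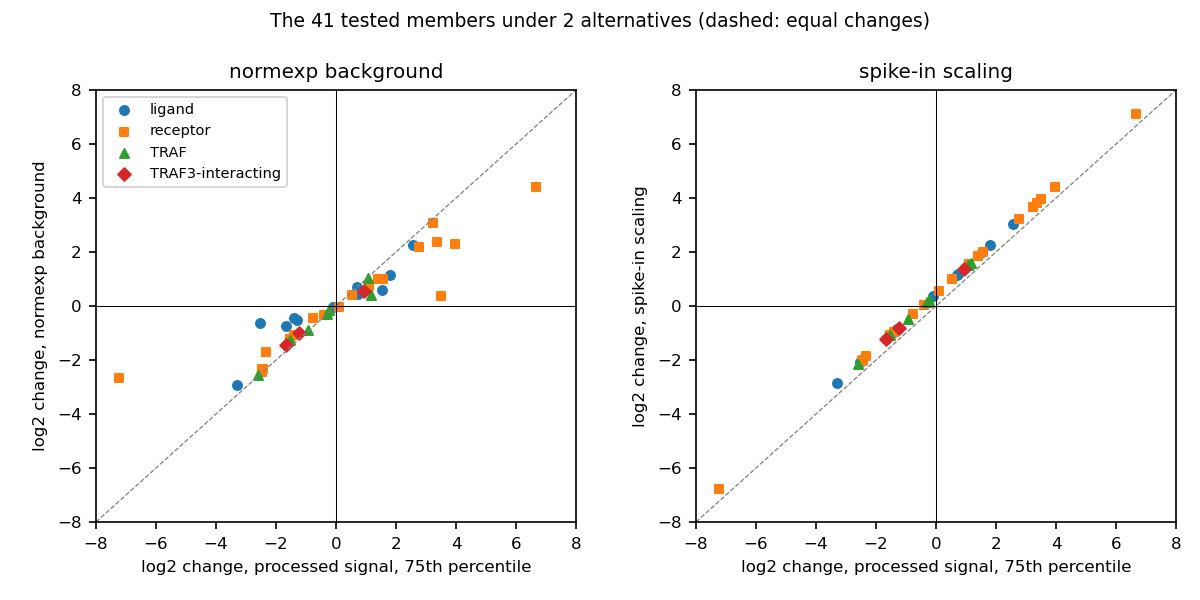
Log2 change of the 41 tested members with the processed signal scaled to the 75th percentile (horizontal axes) against the change with normexp background correction (left) and with spike-in scaling (right); the dashed line marks equal changes. Normexp draws dim genes such as Tnfrsf13c (-7.25 to -2.67) and Tnfrsf17 (3.49 to 0.38) towards 0, and spike-in scaling shifts all members upwards.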

How the data were processed

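Cy3-labelled RNA of 6 samples was run on Agilent arrays of 1 design. Each spot's background-subtracted intensity, called the processed signal, came from Agilent Feature Extraction 10.5.1.1 per the file headers, not normalized between arrays, with probe positions in mm9. The deposited table of log2 values equals log2 of that signal for 4 arrays; the columns of both replicates 1 differ from it, for a reason not given in the sources used here. It was used as an alternative.

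Outlier spots were set missing, log2 signals were reduced by the array's 75th percentile, and spots of a probe were averaged. limma 3.58.1 in R 4.3.3 fitted all 21183 probes well above background on all 3 arrays of a group, checked on simulated data. Replicate numbers come from the titles. Deviations of same-numbered samples correlated at -0.003, 0.108 and 0.069, so the numbers were not taken as pairs. Non-members were renamed through RefSeq accessions (25097 probes matched). Alternatives covered background, scaling, filters, blocks, weights, the probe rule and each sample left out.

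Members and gene lists were chosen with earlier results of these data known. Of each role, named genes were up to 5 with the largest rise and 5 with the largest fall, plus well-known members fixed by name, those not called or not tested, and up to 3 genes in each direction of each pathway list. Promoter windows came from RefSeq (GRCm38.p6).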

Additional observations from a re-analysis of the deposited data

How the results depend on the processing

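Over 20 alternatives, 36 of 41 tested members kept direction and side of the threshold in each one in which they were tested. The remaining 5 had changes of at most 0.41 in size. Ltbr was -0.02 (adjusted p = 0.759) with normexp, 0.22 (0.0426) with median scaling and 0.54 (0.00441) with spike-in scaling. Tnfsf14 was -0.14 (0.0291) with quantile normalization, 0.04 (0.482) with median scaling and 0.37 (0.000707) with spike-in scaling. Traf7 was -0.15 (0.0516) with quantile normalization, -0.09 (0.27) with median scaling, -0.19 (0.091) within slide 1 and 0.23 (0.0112) with spike-in scaling, which also gave 0.05 (0.521) for Tnfrsf22 and 0.15 (0.0308) for Traf5. Leaving out 1 sample at a time changed 1 call, that of Ltbr without control replicate 3 (0.19, 0.0336). Member genes called numbered 17 to 22 higher and 18 to 22 lower, and pathway genes 35 to 47 higher and 20 to 28 lower. With the replicate number as a block, the call of no member changed, and Tnf, for example, changed by 0.71. Spots that are dim in a group limit their sizes to bounds, which hold for the processed signal only.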
